A study of Mus musculus with 75 samples.

Results

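Matrix metalloproteinases (MMPs) and their tissue inhibitors (TIMPs) were described in cultured mouse skin fibroblasts that were passaged into replicative senescence and in fibroblasts in which E2f4, Tead1 or Atf3 was manipulated. The genes are a fixed list of 10 of the 24984 genes in the count files, 7 MMPs (Mmp2, Mmp3, Mmp9, Mmp10, Mmp11, Mmp13 and Mmp14) and 3 TIMPs (Timp1, Timp2 and Timp3). RNA-seq was made from untreated C57BL/6 skin fibroblasts of 2-month-old female mice with 4 libraries from each of passages 1, 3, 5 and 7 (P1 to P7), and ATAC-seq, which maps open chromatin, from 4, 3, 3 and 3 samples of these passages. E2f4 overexpression (2 libraries, E2f4 OE) used a lentiviral cDNA induced with doxycycline, and its control (2 libraries) carried the vector with EGFP under the same culture. Knockdown used lentiviral hairpins, with 3 libraries each of E2f4 sh1, Tead1 sh3, Tead1 sh4, Atf3 sh5 and Atf3 sh6 and 3 of the non-targeting control (nt) of each experiment. For genetic manipulation the study used both skin fibroblasts of 2-month-old mice, as above, and fibroblasts of newborn mice, and the labels do not tell which was used where. Its methods do not state the strain, tissue or sex for the newborn cells. The text of the study places the E2f4 overexpression at P4 and the E2f4 knockdown at P3, while its methods name P2 and P3 for proliferating cells and P6 for interventions in senescence, and neither gives the passage of the Tead1 and Atf3 experiments. The cells were primary cultures, and the labels do not say whether replicates were separate mice or dishes, so the p-values measure the spread between these libraries only.

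MMPs are zinc-dependent endopeptidases that cut proteins of the extracellular matrix, and most are secreted as proenzymes that must be cleaved to become active. TIMPs bind the active site of MMPs in a paired complex and block it, and TIMP3 differs from the others in binding to the matrix itself. In skin, fibroblasts are a main source of both, and a rise of secreted MMPs is part of what is called the senescence-associated secretory phenotype. Mmp3 and Mmp10 (stromelysins) and Mmp13 (a collagenase) lie together on chromosome 9, where genes of this kind are known targets of AP-1, a dimer of Fos, Jun and ATF family proteins. On mm10, Mmp13 spans chr9:7272514-7283333, Mmp3 chr9:7445822-7455975 and Mmp10 chr9:7502342-7510242, all on the plus strand. The others lie apart, Mmp2 at chr8:92827290-92853421, Mmp9 at chr2:164940326-164955850, Mmp11 at chr10:75923221-75932502, Mmp14 at chr14:54431598-54442456, Timp1 at chrX:20870166-20874737, Timp2 at chr11:118301061-118355411 and Timp3 at chr10:86300412-86349505.

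The promoters of Mmp3, Mmp10 and Mmp13 are shown because the largest fall and the largest rises among the 10 genes were theirs. The sequences are from RefSeq on GRCm38.p6, the assembly of mm10, from 250 bases before to 50 bases after the start site on the plus strand, and run 5′ to 3′. Mmp3 is taken from chr9:7445572-7445871, Mmp10 from chr9:7502092-7502391 and Mmp13 from chr9:7272264-7272563. Capitals mark the AP-1 consensus, TGAGTCA or its reverse complement TGACTCA.
Mmp3: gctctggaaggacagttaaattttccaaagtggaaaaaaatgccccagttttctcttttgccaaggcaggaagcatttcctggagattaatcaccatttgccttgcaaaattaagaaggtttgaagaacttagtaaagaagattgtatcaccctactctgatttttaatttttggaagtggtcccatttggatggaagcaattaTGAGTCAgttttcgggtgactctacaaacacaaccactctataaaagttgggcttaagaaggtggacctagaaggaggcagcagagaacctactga
Mmp10: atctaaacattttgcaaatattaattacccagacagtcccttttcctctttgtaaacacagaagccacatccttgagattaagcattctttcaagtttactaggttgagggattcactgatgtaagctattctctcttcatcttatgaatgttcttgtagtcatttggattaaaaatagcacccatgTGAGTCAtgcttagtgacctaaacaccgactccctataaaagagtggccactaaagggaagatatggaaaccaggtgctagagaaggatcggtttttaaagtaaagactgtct
Mmp13: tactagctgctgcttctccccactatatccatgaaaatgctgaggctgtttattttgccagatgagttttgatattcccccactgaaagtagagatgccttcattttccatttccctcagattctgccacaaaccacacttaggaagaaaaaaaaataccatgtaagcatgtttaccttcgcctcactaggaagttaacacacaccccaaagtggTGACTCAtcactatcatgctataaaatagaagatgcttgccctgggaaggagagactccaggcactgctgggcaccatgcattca

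The consensus began at -46 in Mmp3, -63 in Mmp10 and -35 in Mmp13, counted from the start site. It was present in 1709 of 32851 promoters of this length (5.2%). The promoters of Mmp11, Mmp14, Timp1, Timp2 and Timp3 held no match, and those of Mmp2 and Mmp9 were not analysed here. AGGAAG, the PEA3 type of ETS consensus, was found at -183 in Mmp3 and at -109 and -62 in Mmp13, and 35.4% of all promoters held it on either strand. It was also present in Mmp14 (-209), Timp1 (-175, -99 and 41) and Timp3 (-204). Neither the CRE consensus TGACGTCA nor the TEAD consensus GGAATGT or its reverse complement ACATTCC was found in the promoters of the 8 genes searched, and 1.79% and 3.85% of all promoters held them. These matches describe letters in the sequence only.

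The libraries held 9147324 to 27552949 counts. Levels are CPM, counts scaled to library size with TMM, and a change passed with an adjusted p under 0.05 by edgeR's quasi-likelihood test, with Benjamini-Hochberg adjustment over all genes tested. All 10 fibroblast markers, such as Col1a1, were detected in every group. Among the passages, the lists of macrophage, endothelial, skeletal muscle, keratinocyte and neutrophil markers were highest at P1. There the summed CPM of 10 macrophage markers was 311–488 against 35.4–55.4 at P7, that of 7 endothelial markers 158–170 against 7.33–10, that of 8 skeletal muscle markers 127–195 against 38.6–109, and that of 8 keratinocyte markers 60.8–373 against 9.45–13.1. In the muscle list Acta1 went the other way, with a mean of 57.3 CPM at P1 and 71 at P7. Myod1, Myog and Ckm were at 0 at P7. Krt15 was at 0 at P1, as were Mpo and Elane of 8 neutrophil markers, whose sum was 1.23–1.85 at P1 against 0.52–1.07 at P7. In bulk RNA, fewer cells of a type and less RNA per cell cannot be told apart. Ddx3y of the Y chromosome had 0 counts in the 16 passage libraries but was present beside Xist in all 28 libraries of the interventions. In the Atf3 experiment, sh5 replicate 3 stood apart from replicates 1 and 2, with fibroblast markers at 27200 CPM against 39000 and 40300. Counting ignored strand, so the counts of Mmp2 (which overlaps Gm45472), Timp1 (Syn1), Timp2 (Cep295nl) and Timp3 (Syn3) are uncertain to that extent.

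Between P1 and P7 Mmp3 fell sharply by P3 and stayed low, and all 3 TIMPs were highest at P7, while 5 of the 7 MMPs did not pass. At P7 against P1, 4 of the 10 genes were higher (Mmp11, Timp1, Timp2 and Timp3), beside 30.5% of all 13442 genes tested, and 1 was lower (Mmp3), beside 31.9%. The median log2 fold change was 1.61 over the 3 TIMPs and 0.14 over the 7 MMPs, against -0.01 over all genes.

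**Figure D1:**
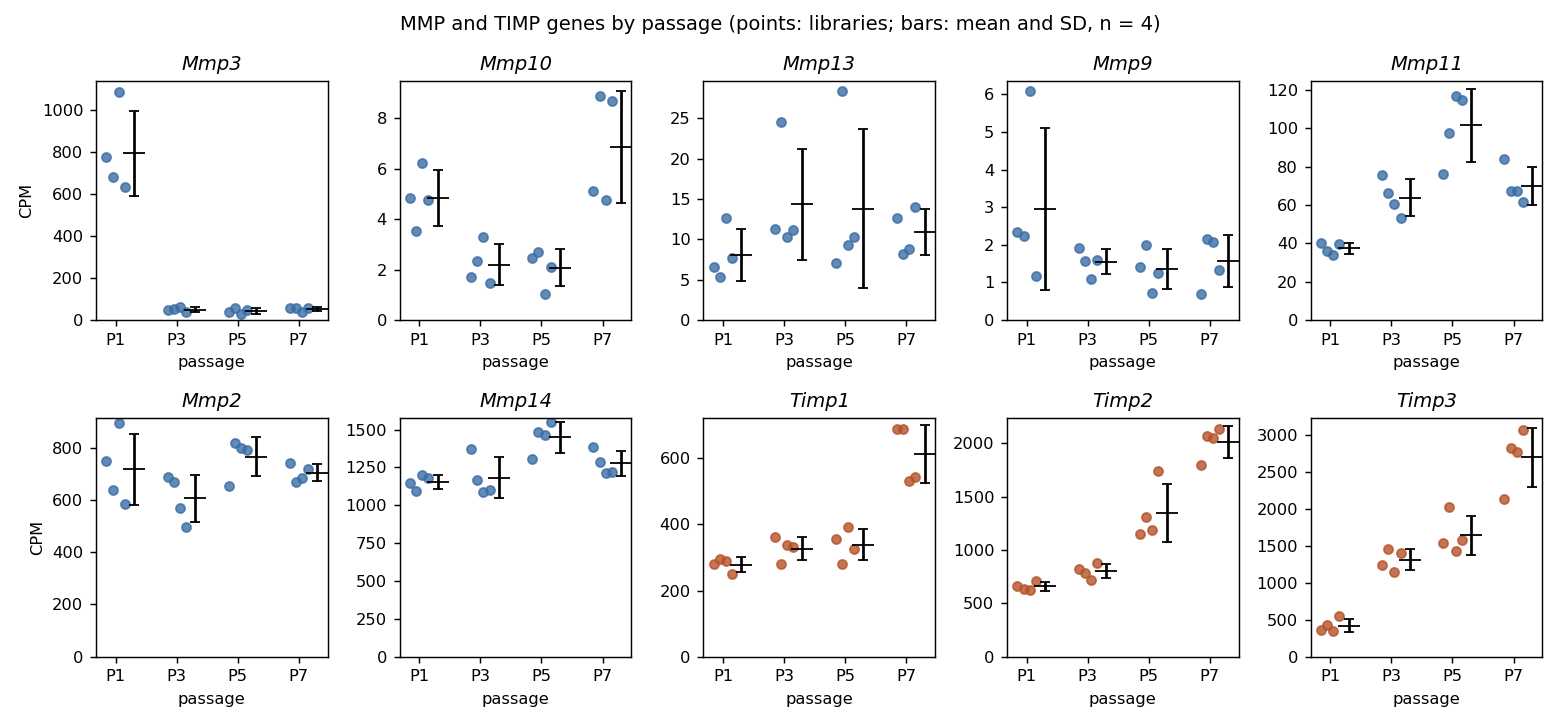
CPM of the 10 genes (y axis) at passages 1, 3, 5 and 7 (x axis), with 1 point per library and bars for the mean and SD of 4 libraries, MMPs in blue and TIMPs in orange. Mmp3 lies between 632.7 and 1083 at P1 and below 64 later, and the 3 TIMPs are highest at P7.

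Mmp3, a stromelysin that cuts proteoglycans, fibronectin and several proenzymes of other MMPs, was measured at 773.6, 679.7, 1083 and 632.7 CPM in the P1 libraries. It was at 47.38, 52.47, 63.77 and 36.43 CPM at P3, 37.8, 58.29, 28.37 and 46.93 at P5, and 55.5, 59.26, 39.74 and 59.53 at P7. Every P1 library lay above every later one. The log2 fold change was -3.98 ± 0.225 (SE) at P3 (adjusted p = 2.33e-10) and -3.89 ± 0.224 at P7 (adjusted p = 2.83e-11), so that the mean at P7 was 0.0675 of that at P1. From P3 onward no step passed, with P7 against P3 at 0.10 (adjusted p = 0.72). P1 replicate 3 had the most Mmp3 and also the highest sum of keratinocyte markers, 373 CPM beside 105, 89.9 and 60.8 in replicates 1, 2 and 4. Over the 16 passage libraries, which share the change from P1, the genes most like Mmp3 were the keratins Krt6a, Krt5 and Krt17 (Pearson's r of log2 CPM 0.985, 0.985 and 0.984, a description only). The part of other cells in the fall of Mmp3 was not tested.

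Mmp10, the second stromelysin, was low throughout and rose late. Its CPM was 4.863, 3.534, 6.221 and 4.765 at P1, 1.709, 2.332, 3.288 and 1.463 at P3, 2.455, 2.697, 1.034 and 2.118 at P5, and 5.114, 8.873, 4.765 and 8.684 at P7. The P3 and P5 libraries all lay below those of P1 and of P7, while P1 and P7 overlapped. It was lower at P3 (log2 fold change -1.13 ± 0.299, adjusted p = 0.00671) and P5 (-1.22 ± 0.300, adjusted p = 0.00212) than at P1, and higher at P7 than at P5 (1.72 ± 0.297, adjusted p = 0.000476) and P3 (1.63 ± 0.296, adjusted p = 0.000154). P7 against P1 gave 0.50 (adjusted p = 0.118). At P7 against P5, 4 of the 10 genes were higher (beside 7.67% of all genes) and 1 lower (beside 9.1%), and at P7 against P3 4 were higher (beside 24.8%) and 0 lower (beside 26.5%). The genes most like Mmp10 over the 16 libraries were Stc1 (r = 0.925), Sdk1 (r = 0.866) and Ism1 (r = 0.854).

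Mmp13, a collagenase that cuts fibrillar collagens, passed in no passage comparison. It ranged over 5.369–12.71 CPM at P1, 10.25–24.62 at P3, 7.043–28.42 at P5, then 8.179–14.03 at P7, and replicate 2 was far above the other libraries at P3 and at P5. Mmp9, a gelatinase of inflammatory cells and keratinocytes, was near the lower end of detection, with 2.329, 2.243, 6.084 and 1.176 CPM at P1 and 1.422, 2.005, 0.7108 and 1.258 at P5. The groups overlapped, and its fall at P5 (-1.13 ± 0.427, adjusted p = 0.0335) did not pass without P1 replicate 3 (adjusted p = 0.293) or without P5 replicate 1, 3 or 4 (adjusted p = 0.056, 0.102 and 0.0663), nor in a fit of these groups alone (adjusted p = 0.0591). P7 against P1 gave -0.91 (adjusted p = 0.0703).

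Mmp11 (stromelysin 3), which is activated inside the cell by furin and is typical of stromal cells around tumours, rose to P5. Its libraries were at 39.93, 36.09, 33.97 and 39.91 CPM at P1, 75.77, 66.05, 60.54 and 53.03 at P3, 76.24, 97.7, 117 and 114.7 at P5, and 83.82, 67.13, 67.17 and 61.38 at P7. All later libraries were above all of P1, and P5 and P7 overlapped. The log2 fold change was 0.77 ± 0.134 at P3 (adjusted p = 0.000201), 1.44 ± 0.135 at P5 (adjusted p = 4.96e-08) and 0.90 ± 0.134 at P7 (adjusted p = 9.72e-06), and P7 was lower than P5 by edgeR (-0.54 ± 0.131, adjusted p = 0.00791). Its closest gene in pattern was Gtpbp2 (r = 0.971).

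Mmp2 (gelatinase A) and Mmp14 (MT1-MMP, the membrane-bound enzyme that activates pro-MMP2 together with TIMP2) were abundant and varied little. Mmp2 lay at 583.9–894.0 CPM at P1, 495.6–688.7 at P3, 654.2–816.5 at P5, then 669.4–741.3 at P7, and Mmp14 at 1097–1200, 1085–1375, 1306–1549 and 1215–1387 in the same order. Mmp14 was higher at P5 than at P1 (log2 fold change 0.33 ± 0.0860, adjusted p = 0.00362, no overlap) and than at P3 (0.29 ± 0.0859, adjusted p = 0.0157), the latter not without P3 replicate 3 (adjusted p = 0.0607). Mmp2 was higher at P5 than at P3 (0.34 ± 0.123, adjusted p = 0.0455), and this did not pass without P3 replicate 3 or 4 or P5 replicate 2, 3 or 4 (adjusted p 0.0866 to 0.147). Neither gene passed at P7 against P1. At P5 against P1, 5 of the 10 genes were higher, beside 25.1% of all genes, and 3 lower, beside 26.1%. At P5 against P3, 4 were higher (beside 13.4%) and 0 lower (beside 15.3%), and 2 passed without P3 replicate 3. Of all genes, 2765 of 13613 passed without P3 replicate 3, against 3862 of 13442 with all libraries.

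Timp3, which binds to the matrix and also inhibits ADAM and ADAMTS proteases, showed the largest rise of the 10 genes over passaging. Its libraries were at 367, 429.9, 349.8 and 547.1 CPM at P1, 1245, 1461, 1150 and 1412 at P3, 1542, 2026, 1428 and 1578 at P5, and 2136, 2828, 2772 and 3068 at P7. P1 and P7 stood clear of all other passages, and P3 and P5 overlapped. The log2 fold change against P1 was 1.64 ± 0.145 at P3 (adjusted p = 7.73e-08), 1.96 ± 0.147 at P5 (adjusted p = 2.65e-09) and 2.67 ± 0.151 at P7 (adjusted p = 2.15e-11), a ratio of 6.38 at P7. At P3 against P1, 2 of the 10 genes were higher (Mmp11 and Timp3), beside 16% of all genes, and 2 lower (Mmp3 and Mmp10), beside 17.5%.

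Timp2, which inhibits MMP2 and in complex with MMP14 takes part in its activation, rose at each step after P3. It was at 660.6, 637.1, 624.9 and 714 CPM at P1, 819.1, 787.2, 718.8 and 878.7 at P3, 1147, 1313, 1185 and 1740 at P5, and 1795, 2067, 2052 and 2136 at P7. Successive passages did not overlap. P3 against P1 gave 0.28 (adjusted p = 0.0586), P5 against P3 0.75 ± 0.112 (adjusted p = 0.000102), P7 against P5 0.58 ± 0.112 (adjusted p = 0.00133) and P7 against P1 1.61 ± 0.114 (adjusted p = 4.08e-10).

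Timp1, an inhibitor that many cells induce with growth factors and cytokines, rose at the last step. It lay at 278.7, 296.6, 290.3 and 248.8 CPM at P1, 360.2, 279.5, 336.7 and 330.8 at P3, 354.2, 279.9, 390.9 and 326.3 at P5, and 688.5, 686.2, 530.2 and 543.3 at P7. All P7 libraries were above all others, and the earlier passages overlapped. P7 was higher than P5 by 0.86 ± 0.114 (adjusted p = 3.13e-05) and than P1 by 1.14 ± 0.114 (adjusted p = 5.84e-08) on the log2 scale. The smaller difference of P5 from P1 (0.28 ± 0.113, adjusted p = 0.0462) did not pass when P1 replicate 1, 2, 3 or 4 or P5 replicate 1, 3 or 4 was left out (adjusted p 0.0512 to 0.163), with DESeq2 size factors (adjusted p = 0.0521) or with at least 10 counts in every library (adjusted p = 0.0771).

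Levels of different genes can be compared per kb of exon. On this scale, at P1, Mmp3 led with 440 CPM per kb, followed by Timp1 (313), Mmp14 (304), Mmp2 (223), Timp2 (182) and Timp3 (90.5). At P7 the order was Timp1 (688), Timp3 (577), Timp2 (556), Mmp14 (336), Mmp2 (219), Mmp11 (29.8) and Mmp3 (29.7). The 3 TIMPs summed to 573.4–601.0 CPM per kb at P1 and 1725–1946 at P7, and the 7 MMPs to 867.4–1220 and 590.1–670.5. The ratio of the TIMP to the MMP sum was therefore 0.470–0.684 at P1, 1.4–1.86 at P3, 1.52–1.72 at P5, then 2.57–3.16 at P7, with P3 and P5 overlapping and the others apart. Of the MMPs, Mmp3 went from 440 to 29.7 CPM per kb, and Mmp2 moved little (223 and 219). The means of Mmp14 (304 and 336) and Mmp11 (16 and 29.8) were higher at P7 than at P1. Mmp10 (2.79 and 3.96), Mmp13 (3.03 and 4.08) and Mmp9 (0.775 and 0.41) added little to the sum.

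**Figure D2:**
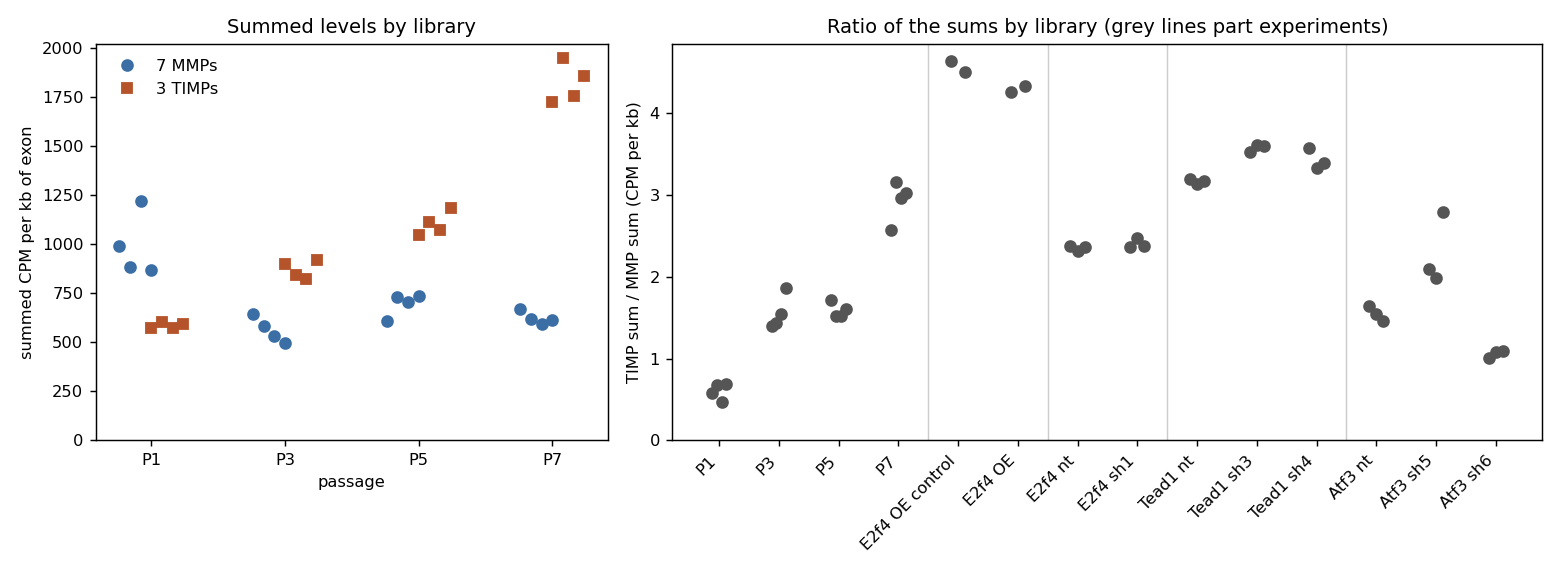
Left, summed CPM per kb of exon of the 7 MMPs (circles) and 3 TIMPs (squares) by passage, 1 point per library; right, ratio of the TIMP to the MMP sum in every library, with grey lines between experiments. The ratio is below 0.7 in all P1 libraries and above 2.5 in all P7 libraries, and Atf3 sh6 lies at 1.01–1.09 below its control.

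Of the other genes of the pathway, 9 of 17 further MMP and TIMP genes had enough counts at P7 against P1, with 1 higher and 5 lower. Here and in the lists that follow, 30.5% of all genes tested were higher and 31.9% lower. Mmp12, the macrophage elastase, which lies between Mmp13 and Mmp3, went from 102.3 to 0.6195 CPM (log2 fold change -7.33) beside the fall of the macrophage markers, and Mmp8, the neutrophil collagenase, fell by 2.87, Mmp27 by 1.71 and Mmp19 by 1.69. Of 17 ADAM and ADAMTS proteases tested, 9 were higher and 6 lower. The largest changes were those of Adam8 (-4.84), Adamts15 (-3.15), the aggrecanase Adamts5 (2.02) and Adamts7 (-1.59). Of 6 activators and plasminogen genes tested, Bsg, an inducer of MMPs, was higher (0.98) and the urokinase receptor Plaur lower (-0.26). Of 6 further inhibitors and clearance receptors, 3 were higher and 2 lower, with Spock1 at -5.03, the collagen receptor Mrc2 at 1.33, the membrane inhibitor Reck at 0.95 and Lrp2 at -0.80. Of 8 AP-1 subunits, 4 were higher and 0 lower at P7, Fos at 0.99, Atf3 at 0.93, Jund at 0.58 and Junb at 0.46, and none passed at P3.

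In the E2f4 overexpression experiment E2f4, a cell cycle repressor and activator of the E2F family, was at 1118 and 1180 CPM against 35.45 and 47.54 in the control. Timp1 rose and the other TIMPs fell. Reads outside annotated genes were 5.64–6.01% of the reads under E2f4 OE and 10.8–11.5% in the control. Of the 8 genes tested, 3 were higher, beside 28.9% of all 13199 genes tested, and 3 lower, beside 28.2%. Timp1 was at 731.1 and 767.3 CPM against 395.4 and 524.3 (log2 fold change 0.70 ± 0.130, adjusted p = 0.000993). Timp3 was at 1979 and 2003 against 2625 and 2615 (-0.40 ± 0.0885, adjusted p = 0.00314), and Timp2 at 1326 and 1432 against 1728 and 1765 (-0.34 ± 0.0934, adjusted p = 0.00946). No group overlapped its control in these 3 genes, and the ratio of the TIMP to the MMP sum was 4.26–4.34 against 4.51–4.64.

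Mmp3 was near the lower end of detection in these cells, with 61 and 45 counts (2.218 and 2.15 CPM) under E2f4 OE against 17 and 9 counts (0.7422 and 0.5187 CPM), and was higher (1.76 ± 0.360, adjusted p = 0.00185). Mmp2 was higher by 0.27 ± 0.0961 (adjusted p = 0.0302; 588.5 and 618.6 against 496.8 and 500.9 CPM), and Mmp9 lower by edgeR (-0.80 ± 0.204, adjusted p = 0.00636; 3.599 and 3.632 against 5.807 and 6.858 CPM). Mmp11 and Mmp14 did not pass, and Mmp10 and Mmp13 had too few counts to be tested. The call of Mmp2 was lost without E2f4 OE replicate 1 or 2 (adjusted p = 0.132 and 0.255) and that of Timp2 without replicate 1 (adjusted p = 0.133). Osteoblast and chondrocyte markers summed to 1480–1520 CPM against 489–580, with Bglap at 0 under E2f4 OE, and skeletal muscle markers, nearly all of it Acta1, to 22.4–23.8 against 66.5–76.4. The osteoblast and chondrocyte list was thus high in the control as well, and summed to 11.2–24.7 CPM over the passages. Its top gene was Acan in the control (mean of 271 CPM) and Col2a1 under E2f4 OE (719 CPM). Xist was at 559.5–686.4 against 1156–1400 CPM and Ddx3y at 7.359–9.961 against 36.48–36.76, both lower under E2f4 OE. Timp1 is on the X chromosome, and the part of these differences and of the reads outside genes in the changes was not tested.

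Among the other genes of the pathway under E2f4 OE, 5 of 8 AP-1 subunits were higher and 1 lower, with Fosl1 at 1.61, Junb at 1.21, Jund at 1.10 and Fosl2 at 0.79 on the log2 scale. Of all genes tested 28.9% were higher and 28.2% lower. Of 6 activators and plasminogen genes tested, 5 were higher and 1 lower, among them Serpine2 (0.92), Plaur (0.81), Furin (0.72), which cleaves proenzymes including pro-MMP14, and Plau (0.63), the urokinase itself. Of 5 further inhibitors and receptors tested, 0 were higher and 4 lower, with Tfpi2 at -1.84 and Reck at -0.83.

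Knockdown of E2f4 with sh1 left 21.3 CPM of E2f4 against 60.0 in the control. Of the 7 genes tested, 4 were higher, beside 10% of all 12310 genes tested, and 0 lower, beside 7.79%. Timp3 showed the largest change, with 1568, 1584 and 1702 CPM against 1038, 974 and 1043 (0.67 ± 0.0584, adjusted p = 4.82e-06). Mmp14 was at 1074, 1031 and 1125 against 850.2, 889.8 and 823.6 CPM (0.33 ± 0.0585, adjusted p = 0.00126). In both genes the hairpin libraries lay above every control library. Timp2 (0.25 ± 0.0678, adjusted p = 0.021) and Mmp2 (0.23 ± 0.0609, adjusted p = 0.0179) also passed, though neither did without E2f4 sh1 replicate 2 or nt replicate 1 or 3 (adjusted p 0.0538 to 0.108), so that 2 of the 10 genes passed without nt replicate 1 or 3. Of all genes, 1131 of 12419 passed without nt replicate 1 and 1305 of 12468 without nt replicate 3, against 2192 of 12310 with all libraries. Replicate 1 of nt stood apart, with 18352 genes detected against 14984 and 15510 in replicates 2 and 3 and with 14.3% of reads outside annotated genes against 8.8 and 10.1%. Fibroblast markers summed to 31200–34600 CPM with sh1 and 40600–41600 with nt, macrophage markers to 17.7–23.2 and 9.25–13.6, and skeletal muscle markers, nearly all of it Acta1, to 111–136 and 73.5–76.3. The part of these differences in the changes was not tested. Mmp3, Mmp10 and Mmp13 held 0 to 8 counts a library and were not tested. The ratio of the TIMP to the MMP sum was 2.36–2.48 with sh1 and 2.32–2.38 with nt. Overexpression and knockdown each moved Timp3 and Timp2 against their own control, in opposite directions, while Mmp2 passed as higher in both. The experiments shared no libraries, and the difference between them was not tested.

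**Figure D3:**
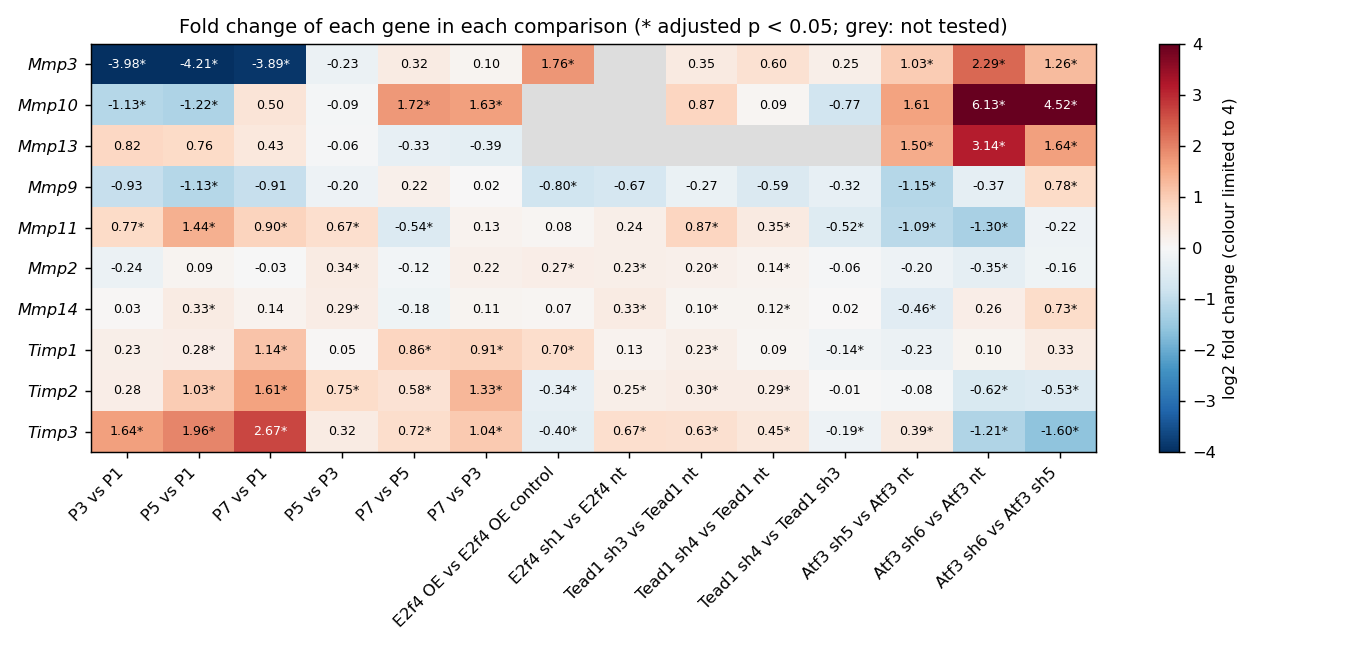
Log2 fold change of each gene (rows) in each of 14 comparisons (columns), with the value in the cell, a star for an adjusted p under 0.05 by edgeR and grey for genes with too few counts. The colour is limited to 4 in either direction, and the strongest cells are Mmp3 against P1 and Mmp10 under Atf3 sh6.

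Tead1, a DNA-binding partner of YAP and TAZ, was at 541.5 CPM in the control, 279 with sh3 and 316.3 with sh4. Both hairpins came with more Mmp11 and more Timp3, and sh3 with the larger change. Of the 9 genes tested, 6 were higher with sh3, beside 17.6% of all 13012 genes tested, and 0 lower, beside 17.7%. With sh4, 5 were higher, beside 14.4%, and 0 lower, beside 14.7%. Both comparisons use the same control libraries. By the sequences the study lists, sh3 and sh4 target nearly the same stretch of Tead1, so their agreement is not independent. Mmp11 was at 81.72, 85.6 and 81.89 CPM with nt, 151, 159.1 and 145.9 with sh3, and 90.55, 118.8 and 108.5 with sh4. Each of the 3 groups stood apart from the others. The log2 fold change was 0.87 ± 0.0624 with sh3 (adjusted p = 1.43e-12) and 0.35 ± 0.0634 with sh4 (adjusted p = 6.99e-05), and sh4 was below sh3 by edgeR (-0.52 ± 0.0611, adjusted p = 1.62e-06).

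Timp3 was at 1969, 2043 and 1989 CPM with nt, 3050, 3191 and 3065 with sh3, and 2557, 2811 and 2802 with sh4. The groups again did not overlap. Its log2 fold change was 0.63 ± 0.0371 with sh3 (adjusted p = 1.56e-14) and 0.45 ± 0.0370 with sh4 (adjusted p = 6.73e-11), with sh4 below sh3 (-0.19 ± 0.0369, adjusted p = 0.00118). Timp2 was higher by 0.30 ± 0.0371 with sh3 (adjusted p = 1.15e-07) and 0.29 ± 0.0371 with sh4 (adjusted p = 3.81e-07), and Timp1 by 0.23 ± 0.0391 with sh3 (adjusted p = 2.06e-05) but not with sh4 (0.09, adjusted p = 0.0855). At sh4 against sh3, 0 genes were higher, beside 3.34% of all genes, and 3 lower (Mmp11, Timp1 and Timp3), beside 4.03%.

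Mmp2 and Mmp14 moved little, Mmp2 by 0.20 and 0.14 and Mmp14 by 0.10 and 0.12 with sh3 and sh4. Those of Mmp14 did not pass without sh3 replicate 1 or 2, sh4 replicate 2 or 3, or nt replicate 1 or 3 (adjusted p 0.0576 to 0.243). That with sh3 also did not pass by DESeq2 (adjusted p = 0.0559), with its size factors (0.0502) or with the replicate block (0.0581). That of Mmp2 with sh4 did not without sh4 replicate 2 or nt replicate 1 or 3 (adjusted p 0.0937 to 0.154), so that 3 of the 10 genes passed with sh4 when its replicate 2 was left out. Of all genes, 3213 of 13178 passed without sh4 replicate 2, against 3788 of 13012 with all libraries. The difference in Timp1 between the hairpins did not pass without sh3 replicate 1 or 2 or sh4 replicate 2 or 3 (adjusted p 0.0534 to 0.181). Mmp3, Mmp9 and Mmp10 did not pass with either hairpin, and Mmp13 was not tested, with 13, 12 and 5 counts under nt, 2, 1 and 5 under sh3 and 1, 1 and 5 under sh4. The ratio of the TIMP to the MMP sum was 3.53–3.61 with sh3, 3.33–3.57 with sh4 and 3.13–3.20 with nt. Of the other genes of the pathway, Reck (0.72 and 0.33), Mrc2 (0.57 and 0.44), Plau (0.74 and 0.57) and Adamts5 (0.80 and 0.48) were higher with sh3 and sh4, and Adamts9 was lower (-1.08 and -1.02). Skeletal muscle markers summed to 64.4–74.7 CPM with sh3, 72.9–83.7 with sh4 and 98–99.8 with nt, keratinocyte markers to 11.4–15.3, 8.25–10.4 and 6.36–8.32, and osteoblast and chondrocyte markers to 64.7–69.1, 47.9–58.7 and 49–53. Krt14 and Krt1 were at 0 with nt and with both hairpins. The top gene of the keratinocyte list was Perp, at a mean of 9.18 CPM with sh3, 5.97 with sh4 and 4.18 with nt. The part of the differences in these sums was not tested.

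In the Atf3 experiment Mmp3, Mmp10 and Mmp13 of the chromosome 9 cluster rose with sh6, and Mmp3 and Mmp13 with sh5. Atf3, a stress-induced member of the ATF family that dimerises with Jun proteins, was at 3.308, 2.853 and 2.771 CPM with nt, 1.462, 2.098 and 0.4511 with sh5, and 1.511, 1.558 and 2.092 with sh6. It was lower with sh5 (log2 fold change -1.14, adjusted p = 0.0447), while sh6 did not pass (-0.79, adjusted p = 0.114). All libraries of both hairpins lay below those of nt, at 8 to 78 counts of Atf3 a library. The study reports the knockdown by RT-qPCR and immunoblot, which are not part of these data. Of the 10 genes, 3 were higher with sh5, beside 17.7% of all 13345 genes tested, and 3 lower, beside 18.1%. With sh6, 3 were higher, beside 23.8%, and 4 lower, beside 26.0%. Both hairpins were compared with the same control libraries.

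Mmp10 was at 0.4665, 0.05487 and 0.1847 CPM with nt (11, 1 and 4 counts), 0.4875, 0.5117 and 1.353 with sh5 (9, 10 and 24 counts) and 19.58, 17.68 and 16.56 with sh6 (337, 295 and 285 counts). The 3 groups did not overlap, and sh6 was far above both. The log2 fold change was 6.13 ± 0.431 with sh6 (adjusted p = 1.73e-06), a ratio of means of 76.2, and 1.61 ± 0.575 with sh5 (adjusted p = 0.0509). The size of the rise with sh6 rests on few counts in the control, and was 7.09 without nt replicate 1 and 5.73 without nt replicate 2 on the log2 scale. With sh5 it passed without sh5 replicate 1 or 2 or nt replicate 1 (adjusted p 0.0229 to 0.0405) and by DESeq2 (adjusted p = 0.00419). The hairpins differed by 4.52 ± 0.374 (adjusted p = 6.02e-06).

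Mmp3 was at 1.993, 2.03 and 1.755 CPM with nt, 2.654, 4.247 and 4.906 with sh5, and 9.472, 8.331 and 10.4 with sh6, the groups not overlapping. It rose by 1.03 ± 0.234 with sh5 (adjusted p = 0.00813) and 2.29 ± 0.227 with sh6 (adjusted p = 1.83e-05), a difference of 1.26 ± 0.214 between the hairpins (adjusted p = 0.000732). Mmp13 was at 0.3393, 0.6036 and 0.9236 CPM with nt, 1.354, 1.023 and 2.932 with sh5, and 5.811, 5.394 and 5.287 with sh6, again without overlap. It rose by 1.5 ± 0.446 with sh5 (adjusted p = 0.0257) and 3.14 ± 0.417 with sh6 (adjusted p = 0.000135), and the hairpins differed by 1.64 ± 0.372 (adjusted p = 0.00402). The sh5 call of Mmp13 was lost without nt replicate 1 or 2 (adjusted p = 0.086 and 0.0764) and in a fit of sh5 and nt alone (adjusted p = 0.0674). Without sh5 replicate 3, which stood apart, the sh5 changes were 0.87 for Mmp3 (adjusted p = 0.00647), 0.96 for Mmp13 (adjusted p = 0.0469) and 1.00 for Mmp10 (adjusted p = 0.133), the last of these smaller than the 1.61 above.

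Their neighbour Mmp12 held 1, 1 and 0 counts with nt, 1, 1 and 0 with sh5 and 13, 25 and 19 with sh6, and passed with sh6. Mmp1a, between Mmp3 and Mmp10, had 0 counts in all 9 libraries. Of the macrophage markers, Adgre1, C1qa, C1qc and Tyrobp were at 0 with sh6, and the sum of the list was 13.5–13.8 CPM with sh6 and 16.5–18.1 with nt.

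**Figure D4:**
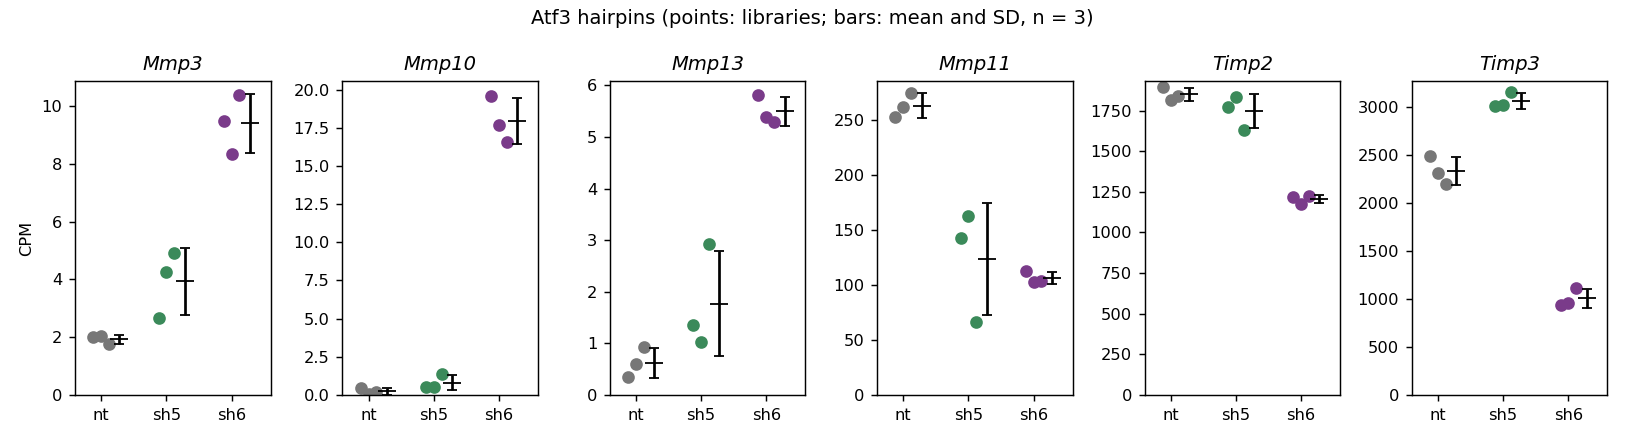
CPM of 6 genes (y axis) in the non-targeting (nt), sh5 and sh6 libraries of the Atf3 experiment (x axis), 1 point per library with bars for the mean and SD of 3 libraries. Mmp3, Mmp10 and Mmp13 are highest with sh6, where Timp2 and Timp3 are lowest, and Timp3 is highest with sh5.

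The TIMPs did not move alike with the hairpins. Timp3 was at 2483, 2308 and 2195 CPM with nt, 3004, 3015 and 3155 with sh5, and 940.2, 960.7 and 1118 with sh6. All sh5 libraries were above the control and all sh6 libraries below it. Its log2 fold change was 0.39 ± 0.0804 with sh5 (adjusted p = 0.00521) and -1.21 ± 0.0815 with sh6 (adjusted p = 1.3e-06), a difference of -1.60 ± 0.0823 (adjusted p = 3.23e-07). Timp2 was at 1896, 1815 and 1837 CPM with nt, 1772, 1833 and 1629 with sh5 and 1218, 1178 and 1223 with sh6, the sh6 libraries below all others. It fell with sh6 (-0.62 ± 0.0640, adjusted p = 2.43e-05) and not with sh5 (-0.08, adjusted p = 0.318). Timp1 passed with neither hairpin (-0.23 and 0.10, adjusted p = 0.367 and 0.684). The ratio of the TIMP to the MMP sum was 1.98–2.79 with sh5, 1.46–1.64 with nt and 1.01–1.09 with sh6.

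Mmp11 was lower with both hairpins. It was at 252.4, 261.9 and 275 CPM with nt, 142.6, 162.4 and 66.14 with sh5, and 113, 102.5 and 103.9 with sh6. No library of either hairpin reached the control. The log2 fold change was -1.09 ± 0.249 with sh5 (adjusted p = 0.00836), or -0.76 without sh5 replicate 3 (adjusted p = 1.45e-06), and -1.30 ± 0.251 with sh6 (adjusted p = 0.00155).

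Mmp14 was at 1586, 1606 and 1655 CPM with nt, 1274, 1426 and 812.9 with sh5, and 2033, 1911 and 1877 with sh6. It was lower with sh5 (-0.46 ± 0.161, adjusted p = 0.0459), though not without sh5 replicate 1 or nt replicate 1, 2 or 3 (adjusted p 0.0546 to 0.116), with DESeq2 size factors (adjusted p = 0.0502) or in a fit of sh5 and nt alone (adjusted p = 0.105), and by -0.23 without sh5 replicate 3 (adjusted p = 0.00425). With sh6 it did not pass in the fit of all 9 libraries (0.26, adjusted p = 0.198) but did in a fit of sh6 and nt alone (0.27, adjusted p = 0.000385). Mmp9 was lower with sh5 (-1.15 ± 0.270, adjusted p = 0.00953; 1.408, 1.842 and 1.071 against 4.114, 2.469 and 3.002 CPM), and Mmp2 with sh6 (-0.35 ± 0.102, adjusted p = 0.0151; 761.9, 700.9 and 745.4 against 940, 915.1 and 966.9 CPM). The latter did not pass without sh6 replicate 2 or nt replicate 3 (adjusted p = 0.066 and 0.0523).

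Between the hairpins, 5 genes were higher with sh6 than with sh5 (Mmp3, Mmp9, Mmp10, Mmp13 and Mmp14), beside 25.9% of all genes, and 2 lower (Timp2 and Timp3), beside 26.6%. That of Mmp9 (0.78 ± 0.278, adjusted p = 0.037) did not pass when sh5 replicate 1 or 3 or sh6 replicate 1, 2 or 3 was left out (adjusted p 0.0623 to 0.107), with the replicate block (0.0528) or in a fit of the hairpins alone (0.0533). Without sh5 replicate 3, Mmp2 (-0.30) and Mmp11 (-0.54) also passed as lower with sh6 (adjusted p = 0.000188 and 7.77e-06). Fibroblast markers summed to 44200–46400 CPM with nt and 24100–24600 with sh6, skeletal muscle markers, nearly all of it Acta1, to 37.4–38.6 and 196–214, and osteoblast and chondrocyte markers to 62.8–70.2 and 20–21.5. With sh5 these sums were 27200–40300, 13.9–17.2 and 38.3–53.5 CPM in the same order. Myog and Mymk were at 0 with sh6. Xist was at 301–326.9 CPM with nt, 407.4–463.7 with sh5 and 199.5–269 with sh6. Ddx3y was at 79.89–87.16 CPM with nt, 92.06–104.3 with sh5 and 120.1–135.5 with sh6. The part of these differences in the changes of the MMPs and TIMPs was not tested.

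Other pathway genes moved with sh6 as well. Plau, the urokinase, rose by 1.74 and Tfpi2, a serine protease inhibitor of the matrix, by 2.40 on the log2 scale. Mmp28 (-3.19), Adamts15 (-3.10) and Adamts5 (-2.0) were lower. Of 17 ADAM and ADAMTS proteases tested, 2 were higher and 10 lower, and of 9 further MMP and TIMP genes 3 were higher and 4 lower. Of 8 AP-1 subunits only Jun passed with sh6 against nt (0.39). Over all genes tested 23.8% were higher and 26.0% lower with sh6.

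Open chromatin at the cluster was followed from P1 to P7. The peak lists hold no read counts, so the strength of a peak was ranked as the percentile of its -log10 p among all peaks of the same sample, with 0 where no peak was listed. The lists were shortest at P3 (142384–155681 peaks) and longest at P7 (200376–231558), with 168982–186562 at P1 and 182402–207965 at P5, and a longer list holds more weak peaks and raises the percentile of a strong one. The ranks were therefore also taken among the 142384 strongest peaks of each sample, as many as the shortest list held, an alternative chosen after seeing the data. With 4 samples against 3 the exact two-sided permutation test has 35 splits and a smallest p of 0.0571, so that no difference can reach 0.05. At the start site of Mmp3, the strongest peak within 1000 bases lay at percentiles 83.8, 85.7, 84.6 and 84.5 at P1, 64.6, 63.5 and 67.8 at P3, 57.1, 75.6 and 40.4 at P5, and 61.7, 55.8 and 53.5 at P7. Every later sample was below every P1 sample, and the difference of P7 from P1 was -27.7 percentile points (exact permutation p = 0.0571, the smallest possible), with a mean fold enrichment of 11.2 at P1 and 7.0 at P7. In lists of equal length the difference was -47.1 (exact permutation p = 0.0571).

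The start site of Mmp10 held a strong peak at all passages, at percentiles 86.9, 78.6, 83.4 and 87.0 at P1 and 83.7, 93.4 and 89.4 at P7. The groups overlapped (difference 4.84, exact permutation p = 0.229). That of Mmp13 lay at 36.2, 52.7, 55.4 and 53.1 at P1 and 46.0, 58.1 and 47.4 at P7 (difference 1.15, exact permutation p = 0.971). The sign of the latter turned without P1 replicate 1 (-3.24) or P7 replicate 2 (-2.65) and in lists of equal length (-12.7, exact permutation p = 0.171), and the difference of Mmp10 ranged from 2.55 to 7.42 with 1 sample left out and was 3.08 in lists of equal length.

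Of the start sites of all 10 genes, 5 were lower at P7 without overlap (Mmp2, Mmp3, Mmp11, Mmp14 and Timp1), beside 30.5% of 19718 start sites with a peak in any sample, and 0 were higher, beside 12.8%. Mean percentiles went from 90.8 to 79.4 at Mmp2, 76.6 to 56.0 at Mmp11, 87.3 to 80.8 at Mmp14 and 94.3 to 86.4 at Timp1. By mean fold enrichment, Mmp2 (10.7 and 10.2) and Mmp14 (4.98 and 5.03) overlapped between P1 and P7. Mmp11 (5.84 and 4.58) and Timp1 (9.38 and 7.57) were lower at P7 by that measure too, without overlap. Timp2 (86.7 and 87.1) and Timp3 (48.1 and 55.5) overlapped between P1 and P7. At Mmp9 a peak was listed in 1 of 4 P1 samples and 3 of 3 P7 samples, at mean percentiles of 0.985 and 11.5. In lists of equal length the same 5 start sites were lower, beside 44.9% of 18820, and no peak was listed at Mmp9 at P1 or P7. Timp1 and Mmp11, whose RNA was higher at P7, were thus among the start sites with a lower rank.

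Across the cluster, from 20 kb before Mmp13 to 20 kb after Mmp10 (chr9:7252514-7530242 on mm10), the peaks of the 13 samples merged into 34 regions, of which 14 had a peak in all samples. At P7, 4 regions lay above P1 without overlap (11.8%, beside 20.7% of all 306835 regions) and 1 below (2.94%, beside 6.81%). The lower one was the region at the Mmp3 start site, with its summit at -52. A peak was listed in all P7 samples and no P1 sample in 3 regions (8.82%, beside 5.14%), at -9070 and -799 of Mmp13 and beside Mmp12, and in none the other way round (beside 0.868%). These 3 were among the 4 higher regions. In lists of equal length, 27 regions remained, of which 0 had a peak in all P7 samples and no P1 sample (beside 2.93%), 1 was higher (3.7%, beside 13.6%) and 4 were lower (14.8%, beside 14.9%). By fold enrichment 9 of the 34 regions were higher, and with 100 kb on each side of the genes 6 were lower. With 1 sample left out, the higher regions numbered 4 to 8 (7 without P1 replicate 3 and 8 without P7 replicate 3) and the lower ones 1 to 3 (3 without P1 replicate 4). For fold enrichment, the wider window and the samples left out, the shares over all regions are not given here. The wider window also holds more regions, so these counts show the dependence on the setting and no trait of the cluster.

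The strongest of the regions that were higher, and the 1 that stayed so in lists of equal length, lay at -2232 of Mmp13, in an exon of Gm31639 (chr9:7269982-7270699). Its percentiles were 89.2, 87.0, 86.0 and 87.3 at P1, 76.9, 79.7 and 83.2 at P3, 90.0, 87.9 and 93.4 at P5, and 93.5, 96.0 and 95.1 at P7, with a mean fold enrichment of 14.0 at P1 and 21.7 at P7. In lists of equal length it lay at 86.7, 84.3, 81.7 and 85.0 at P1, 74.7, 79.7 and 81.7 at P3, 86.0, 82.4 and 91.5 at P5, and 90.9, 93.5 and 92.4 at P7, with P7 above P1 and P3 and overlapping P5. Of the 34 regions, 17 held the AP-1 consensus in the 300 bases around the summit, and 23.5% of all regions did. None of the 4 higher regions was among the 17, and the lower one at the Mmp3 start site was.

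**Figure D5:**
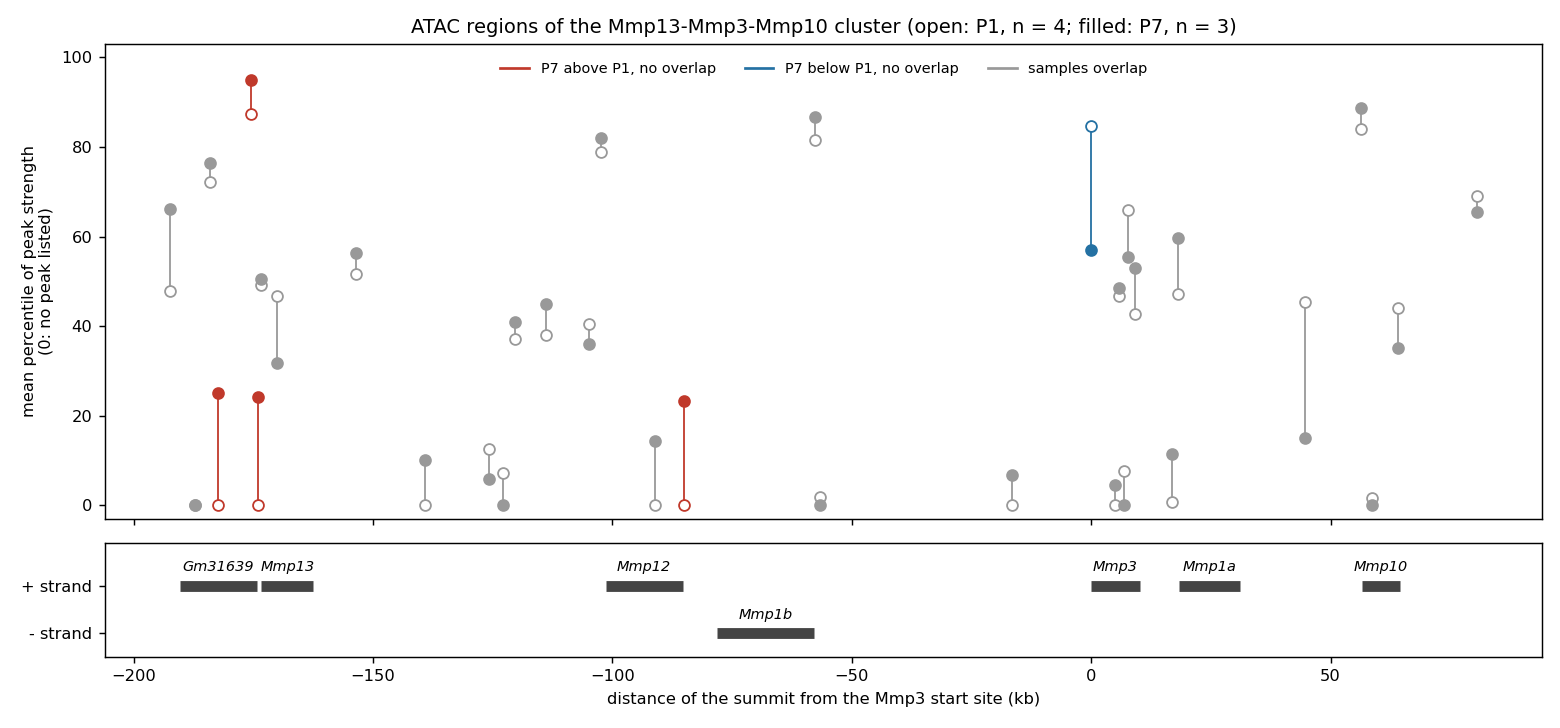
Mean percentile of peak strength (y axis; 0 where no peak was listed) of the 34 regions at P1 (open, 4 samples) and P7 (filled, 3 samples), against the distance of the summit from the Mmp3 start site in kb (x axis), with the genes below by strand. Red and blue mark regions whose P7 samples are all above or all below P1 in the full peak lists, and the only blue one lies at the Mmp3 start site.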

How the data were processed

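RNA-seq of 44 libraries and ATAC-seq peaks of 13 samples were used, and 18 bisulfite sequencing samples were not. For RNA-seq, the authors cleaned reads with Trimmomatic 0.39, mapped them with HISAT2 2.2.1 to mm10 and counted with HTSeq 0.12.4, ignoring strand, and the deposited values are raw counts per gene. In 28 intervention libraries the rows without a gene were left out (no feature 5.64–15.1%, ambiguous 1.43–2.32%). For ATAC-seq, the authors called peaks per sample with MACS2 after Bowtie2 2.3.5.1, and deposited a fold enrichment and a −log10 p for each of 142384 to 231558 peaks, with no read counts, so the depth is unknown.

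All groups of an experiment entered 1 fit of edgeR 4.0.16 (R 4.3.3) with filterByExpr, TMM, the quasi-likelihood test and Benjamini-Hochberg adjustment over all genes tested. Log2 CPM used a prior count of 2. The chi-square per degree of freedom between replicates was 2.75 to 63.7, above counting error. ATAC samples were compared with two-sided exact permutation tests of scipy 1.17.1, on regions merged over all samples. The scripts were tested on simulated data.

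Alternatives were DESeq2 1.42.0, its size factors, other filters on low counts, a block for replicate numbers, fits of single pairs of groups and leaving out each library. Leaving out the P1 libraries in comparisons of later passages and ranking ATAC peaks in lists of equal length were chosen after seeing the data. Up to 4 genes of largest fold change among those that passed were named from each other list, besides the genes of the cluster. Xist, Ddx3y and sh5 replicate 3 of the Atf3 experiment were singled out after their values were seen. The 10 genes and all lists were chosen with earlier results of these data known. 1 gene of the activator list is not reported here and was left out of its counts.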

Additional observations from a re-analysis of the deposited data

Results flagged for a closer look

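In 4 of 49 groups of 4 libraries or samples checked, 1 value lay far from the other 3, and chance flags about 1 in 20 groups. Mmp2 was lowest in P5 replicate 1 (654.2 CPM, next 790.1). Mmp13 was highest in P3 replicate 2 (24.62 CPM, next 11.3) and in P5 replicate 2 (28.42 CPM, next 10.33). The ATAC percentile at the Mmp13 start site was lowest in P1 replicate 1 (36.2, next 52.7).

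The hairpins of 1 gene differed from each other, by edgeR's test of that difference, in 10 results. For Tead1, sh4 was below sh3 in Mmp11 (log2 difference -0.52), Timp1 (-0.14) and Timp3 (-0.19). For Atf3, sh6 was above sh5 in Mmp10 (4.52), Mmp13 (1.64), Mmp3 (1.26), Mmp9 (0.78) and Mmp14 (0.73), and below it in Timp2 (-0.53) and Timp3 (-1.60). Timp3 lay on opposite sides of the control with the 2 Atf3 hairpins, at 0.39 with sh5 and -1.21 with sh6.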

How the results depend on the processing

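Of the 74 differences that passed, none changed direction under any alternative run. With settings other than leaving out a library, 429 values of these stayed on their side of the threshold and 11 did not, and with 1 library left out 438 did and 54 did not; the libraries are named beside each result. The number of the 10 genes that passed stayed within 1.5 times of the reported number under all alternatives except at P3 against P1, where a fit of these groups alone gave 7 in place of 4, and when 1 library was left out: P5 against P3 (2 to 4), E2f4 sh1 (2 to 4) and Tead1 sh4 (3 to 6). The numbers over all genes moved too. At P3 against P1 the fit of these groups alone called 5750 of 13072 genes in place of 4493 of 13442. With 1 library left out, 2674 to 4348 genes passed at P5 against P3, where 3862 had passed. The range was 1131 to 2531 with E2f4 sh1 in place of 2192, and 3024 to 3383 with Tead1 sh4 in place of 3788. Without the P1 libraries, 4 genes passed at P5 against P3, 5 at P7 against P5 and 4 at P7 against P3. Of all 12924 genes tested there, 3062, 1734 and 6328 passed in the same order.

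Replicate numbers were not shown to pair the libraries, with correlations of same-numbered deviations of -0.262 to 0.276 over the passages and -0.158 to 0.137 in the Atf3 experiment. With the replicate block, 5 genes passed at P3 against P1 in place of 4, 5 at P5 against P3 in place of 4, 5 with Tead1 sh3 in place of 6 and 6 at Atf3 sh6 against sh5 in place of 7, and the other counts were equal to those without it. Of all genes, 4573 passed at P3 against P1 in place of 4493 and 3893 at P5 against P3 in place of 3862. For Tead1 sh3 the number was 4553 in place of 4601, and for Atf3 sh6 against sh5 6831 in place of 7013. Mmp9 at P7 against P3 changed sign (-0.033).

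The log2 fold changes that crossed 0 with 1 library left out had not passed. They ranged at P3 against P1 from -0.045 to 0.074 (Mmp14), at P7 against P1 from -0.11 to 0.102 (Mmp2), at P5 against P3 from -0.449 to 0.013 (Mmp9), -0.24 to 0.172 (Mmp10), -0.685 to 0.334 (Mmp13) and -0.029 to 0.129 (Timp1), at P7 against P5 from -0.552 to 0.292 (Mmp13), and at P7 against P3 from -0.019 to 0.236 (Mmp3), -0.178 to 0.262 (Mmp9) and -0.537 to 0.001 (Mmp13). They ranged with E2f4 OE from -0.112 to 0.3 (Mmp11) and -0.082 to 0.233 (Mmp14), with Tead1 sh4 from -0.018 to 0.311 (Mmp10), at Tead1 sh4 against sh3 from -0.234 to 0.552 (Mmp3), -0.019 to 0.055 (Mmp14) and -0.035 to 0.02 (Timp2), with Atf3 sh5 from -0.41 to 0.04 (Timp1) and at Atf3 sh6 against sh5 from -0.536 to 0.028 (Mmp11). The cause was not tested.

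For ATAC, the difference at the Mmp13 start site ranged from -3.24 to 3.38 with 1 sample left out. Regions higher at P7 numbered 9 by fold enrichment in place of 4, and 4 to 8 with 1 sample left out. With 100 kb on each side, a window that holds more regions, 6 regions were lower in place of 1. The shares over all regions under these settings are not given here, so the counts show no trait of the cluster. With the same number of strongest peaks in every sample, 1 region was higher and 4 were lower, and the difference at the Mmp13 start site was -12.7. Libraries with few counts limit Mmp3, Mmp10 and Mmp13 in the interventions, and 4 against 3 ATAC samples limit every test of peaks.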
